A study of Mus musculus with 14 samples.

Results

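The Egr, Nr4a and Ier early genes are Egr1, Egr2 and Egr3, Nr4a1, Nr4a2 and Nr4a3, and Ier2 and Ier3, chosen by symbol. These are 8 of the 24411 genes counted in 14 bulk RNA-seq libraries of mouse kidney, and 8 of the 14300 genes that passed the filter on low counts and were tested. The libraries came from whole kidney of male C57/B6 mice aged 8 weeks, with total RNA extracted by TRIzol, at day 0 (n = 4), day 1 (n = 5) and day 3 (n = 5) after renal ischemia/reperfusion injury (IRI), in which the blood supply of the kidney is stopped and then restored. The labels do not say whether the day 0 kidneys had a sham operation, and all groups share strain, sex, age and tissue. The labels do not state that each library is a separate animal, so p-values measure the spread between these libraries. Values are depth-scaled read counts (CPM, with TMM scaling), and a gene was called when its adjusted p was under 0.05 in edgeR's quasi-likelihood test across all genes. In whole tissue, fewer cells of a type and less RNA per cell cannot be told apart.

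Immediate early genes are switched on within minutes of a stimulus, without new protein synthesis, by kinase cascades that act on transcription factors already present, such as SRF at CArG boxes and CREB at cAMP response elements (CRE). EGR proteins are zinc-finger factors that bind GC-rich DNA. NR4A proteins are orphan nuclear receptors whose activity depends mainly on how much protein is made. Ier2 encodes a nuclear protein of growing cells, and Ier3 (IEX-1) is a target of NF-kB that modulates cell death and ERK signalling.

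Because 7 of the 8 genes differ between days below, the sequences in front of their start sites are shown for those with a window in the RefSeq promoter table (build GRCm38.p6). Windows were found for 5 of 8 members, namely Egr2, Nr4a1, Nr4a2, Nr4a3 and Ier3. The stretches run 5′ to 3′ on the gene's strand from base 250 before the start site and stop where an exon annotated in GENCODE begins. They lie at chr15:101266596-101266845 (plus strand), chr2:57124004-57124253 (minus), chr4:48045055-48045152 (plus), chr10:67537619-67537868 (plus) and chr17:35821463-35821683 (plus). Those of Nr4a1 and Egr2 lie within the annotated gene but outside its exons, in front of internal start sites. Capitals mark, on either strand, the CRE half-site TGACG, the TATA motif TATAAA, the EGR site GCGNGGGCG, the CArG box and the NF-kB motif.
Nr4a1: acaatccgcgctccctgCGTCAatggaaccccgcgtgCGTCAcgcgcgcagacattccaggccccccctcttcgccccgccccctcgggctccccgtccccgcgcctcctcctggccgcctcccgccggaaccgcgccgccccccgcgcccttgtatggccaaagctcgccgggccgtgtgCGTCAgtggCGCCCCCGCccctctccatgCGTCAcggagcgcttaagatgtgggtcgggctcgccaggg
Nr4a2: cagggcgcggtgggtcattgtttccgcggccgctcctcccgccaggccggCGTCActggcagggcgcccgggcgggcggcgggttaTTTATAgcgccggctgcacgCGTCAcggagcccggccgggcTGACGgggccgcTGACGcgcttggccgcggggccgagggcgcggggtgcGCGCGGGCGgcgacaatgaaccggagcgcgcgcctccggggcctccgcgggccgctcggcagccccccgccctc
Nr4a3: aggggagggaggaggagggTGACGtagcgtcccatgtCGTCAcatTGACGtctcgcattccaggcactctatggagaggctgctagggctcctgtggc
Egr2: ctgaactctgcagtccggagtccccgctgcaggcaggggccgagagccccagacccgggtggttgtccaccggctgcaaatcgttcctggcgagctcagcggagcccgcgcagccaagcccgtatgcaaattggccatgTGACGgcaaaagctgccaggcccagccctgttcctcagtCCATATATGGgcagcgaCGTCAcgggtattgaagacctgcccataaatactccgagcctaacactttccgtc
Ier3: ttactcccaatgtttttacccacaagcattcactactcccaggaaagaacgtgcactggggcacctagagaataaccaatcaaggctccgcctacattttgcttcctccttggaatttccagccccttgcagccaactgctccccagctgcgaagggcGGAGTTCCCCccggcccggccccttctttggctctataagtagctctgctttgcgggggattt

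The 3 Nr4a genes share a feature that the choice of members did not use. Each held the CRE half-site in 4 places in its 250 bases, of which 3 fall in the stretch printed for Nr4a3. A count of 4 or more occurred in 0.137% of the 32841 windows of the table, and 1 or more in 17.8%. Egr2 had 5 of the 9 windows of members, and the one shown is the first of the 3 overlapping ones that hold both a CArG box and half-sites. A CArG box, found in 1.47% of all windows, lay in 4 of the 5, but the 3 overlapping windows hold the same box, CCATATATGG. The window at chr10:67537316-67537565 holds a different one, CCTTTTTTGG. The stretch shown also held 2 half-sites. The remaining Egr2 window held the NF-kB motif in 2 overlapping places and neither a CArG box nor a half-site. The EGR site lay in the windows of Nr4a1 and Nr4a2 (4.7% of all windows), the TATA motif in that of Nr4a2 (12.4%) and the NF-kB motif in that of Ier3 (7.25%) besides that of Egr2. The full CRE TGACGTCA, which contains the half-site, was in none of the stretches printed. Matches are letters only, and binding was not measured.

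Depth ran from 12485579 to 20476979 reads on genes per library. Libraries come in 2 kinds, since the number in the library name is written with 3 digits for replicates 1 and 2 of day 1 and replicates 1, 2 and 3 of day 3, and with 1 digit for all others, day 0 included. What this number format marks is not given in the labels, and results are given within each kind as well. Kidney markers were present at day 0, with Slc34a1 of the proximal tubule at 4304 to 5385 CPM and Umod of the thick limb at 4329 to 6564 CPM. Havcr1 (KIM-1), an injury marker of the proximal tubule, was at 30.5 to 151 CPM in the 1-digit libraries of day 1, around its 89.8 to 119 CPM at day 0, and at 1859 to 3013 CPM in the 3-digit ones. Lcn2, another injury marker, was above day 0 (1.63 to 3.23 CPM) in every library of day 1 (480 to 2776 CPM) and of day 3 (66.1 to 3402 CPM).

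At day 1 against day 0, 7 of the 8 early genes rose, where 23.3% of all genes tested rose. With all libraries Egr1 had the highest log2 fold change (5.66), while with only the 3-digit libraries of the later days Egr2 (4.69) and Egr3 (3.96) stood above Egr1 (3.40). The place of Egr3 in this order is not determined, since it had 0 or 1 count per library at day 0. With all libraries Nr4a2 alone was not called. In 6 of the 8 genes every library of day 1 lay above every library of day 0, which held for 21.5% of all genes. The median log2 fold change of the 8 genes was 3.51, beside 0.01 over all genes tested.

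**Figure D1:**
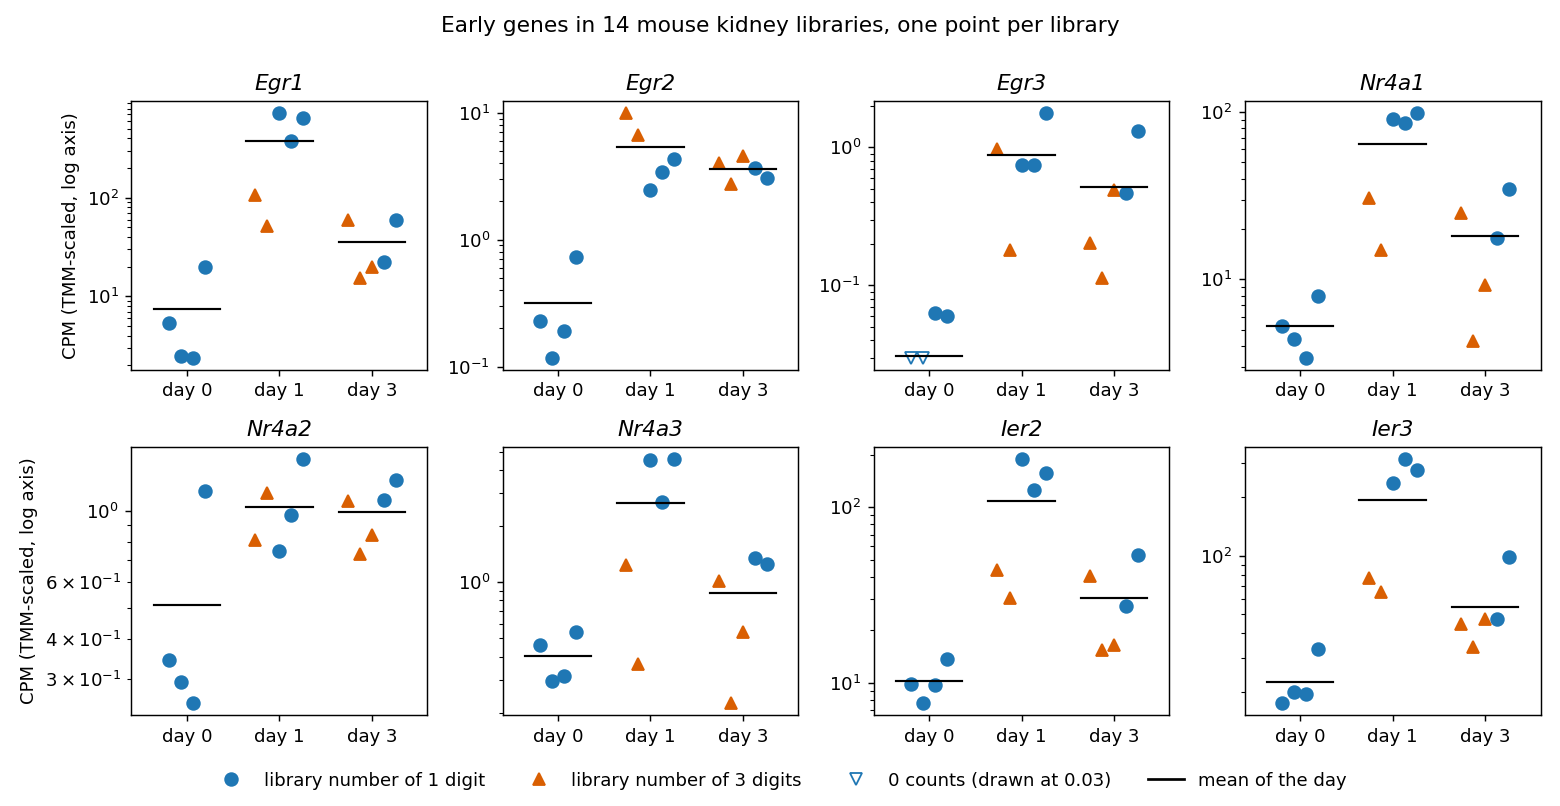
CPM on a log axis in each of the 14 libraries for the 8 genes, by day, with circles for libraries numbered with 1 digit, triangles for 3 digits and a line at the mean of the day. Egr1 spans 2.4 to 19.6 CPM at day 0 and 51.4 to 716 CPM at day 1, and in day 1 the 3-digit libraries lie below the 1-digit ones for Egr1, Nr4a1, Nr4a3, Ier2 and Ier3 and above them for Egr2.

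Egr1 (chromosome 18, 34859823 to 34864984 in GRCm38) is the factor most often used as the mark of an early response. It was at 5.40, 2.47, 2.40 and 19.6 CPM in replicates 1 to 4 of day 0. At day 1 it was at 106 and 51.4 CPM in replicates 1 and 2, which are 3-digit libraries, and at 716, 379 and 637 CPM in replicates 3, 4 and 5. At day 3 it was at 59.1, 15.4, 20.04, 22.4 and 59.0 CPM in replicates 1 to 5. Day 1 lay above day 0 in every library, while at day 3 replicate 2 fell under the highest library of day 0. The log2 fold change was 5.66 ± 0.96 (SE) at day 1 (adjusted p = 0.000579 by edgeR) and 2.23 ± 0.82 at day 3 (adjusted p = 0.0493). Without replicate 4 of day 0 these values of Egr1 were 6.78 (adjusted p = 0.000547) and 3.35 (adjusted p = 0.014), and with only the 3-digit libraries that of day 1 was 3.40 (adjusted p = 0.00805).

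Egr2 (Krox-20; chromosome 10, 67535475 to 67542188), known for hindbrain patterning and for myelin formation by Schwann cells, was a scarce transcript at day 0, at 0.230, 0.118, 0.189 and 0.725 CPM. Its day 1 levels were 9.91 and 6.67 CPM in the 3-digit and 2.45, 3.43 and 4.34 CPM in the 1-digit libraries. At day 3 it was at 4.02, 2.76, 4.602, 3.70 and 3.08 CPM. Every library of day 1 and day 3 lay above every library of day 0, and day 1 and day 3 overlapped. On the log2 scale the fold change was 4.06 ± 0.54 (SE, adjusted p = 0.00011 by edgeR) at day 1 and 3.50 ± 0.53 (adjusted p = 0.000396) at day 3. Without replicate 4 of day 0 they were 4.85 (adjusted p = 0.000113) and 4.29 (adjusted p = 0.000282).

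Egr3 (chromosome 14, 70077203 to 70082614), needed for muscle spindles, was near the limit of detection. It had 0, 0, 1 and 1 counts at day 0, then 18, 4, 11, 13 and 22 counts at day 1 and 4, 2, 10, 7 and 18 counts at day 3. Pooled over libraries and scaled by depth, its level at day 1 was 26.6 times that of day 0 (95% interval 7.1 to 224, for counting error only), and at day 3 it was 15.9 times (4.13 to 136). Of the 41 pooled counts of day 3, replicate 5 supplied 18. Both days lay above day 0 in every library. The adjusted p in edgeR was 0.00276 at day 1 and 0.012 at day 3, and with only the 3-digit libraries the latter was 0.0617, within a range of 0.0013 to 0.0617 over 23 alternatives.

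Nr4a1 (Nur77; chromosome 15, 101254269 to 101274795), known from antigen receptor signalling and cell death in thymocytes, was the most abundant Nr4a gene. It was at 5.29, 4.41, 3.41 and 7.98 CPM at day 0. At day 1 it was at 30.9 and 15.03 CPM in the 3-digit and at 90.8, 86.4 and 98.4 CPM in the 1-digit libraries. At day 3 it was at 24.8, 4.28, 9.30, 17.6 and 34.7 CPM. All of day 1 lay above day 0, while replicate 2 of day 3 lay within day 0. Against day 0 the log2 fold change was 3.60 ± 0.66 (SE, adjusted p = 0.000915 by edgeR) at day 1 and 1.78 ± 0.61 (adjusted p = 0.038) at day 3. With only the 3-digit libraries of the later days, these values of Nr4a1 were 2.12 (adjusted p = 0.0159) and 1.28 (adjusted p = 0.0917).

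Nr4a2 (Nurr1; chromosome 2, 57106830 to 57124003), required for midbrain dopamine neurons, was at 0.345, 0.294, 0.253 and 1.15 CPM at day 0. At day 1 it was at 0.808, 1.13, 0.749, 0.971 and 1.45 CPM. At day 3 it was at 1.07, 0.732, 0.841, 1.08 and 1.25 CPM. Replicate 4 of day 0 thus lay among the libraries of day 1 and day 3, and the other 3 of day 0 lay below all of those. The log2 fold change was 0.99 ± 0.44 (SE, adjusted p = 0.0811 by edgeR) at day 1 and 0.95 ± 0.44 (adjusted p = 0.107) at day 3. Without replicate 4 of day 0 it was 1.75 (adjusted p = 0.00449) and 1.71 (adjusted p = 0.00661), and over all 24 alternatives the adjusted p ran from 0.00449 to 0.223 and from 0.00661 to 0.279. No library of Nr4a2 had over 25 counts.

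Nr4a3 (Nor1; chromosome 4, 48045153 to 48086447) was at 0.460, 0.294, 0.316 and 0.544 CPM at day 0. At day 1 it was at 1.24 and 0.363 CPM in the 3-digit and at 4.50, 2.68 and 4.58 CPM in the 1-digit libraries. At day 3 it was at 1.02, 0.225, 0.544, 1.34 and 1.25 CPM. The 1-digit libraries of day 1 stood alone at the top, and replicate 2 lay within day 0 at day 1 and under all of day 0 at day 3. The log2 fold change was 2.69 ± 0.69 (SE, adjusted p = 0.00698 by edgeR) at day 1 and 1.09 ± 0.69 (adjusted p = 0.232) at day 3. With only the 3-digit libraries the day 1 value was 0.96 (adjusted p = 0.257, the highest over 24 alternatives, whose lowest was 2.25e-05). At day 3 the call was gained with the number format as a term (2.04, adjusted p = 0.0097) and with only the 1-digit libraries (1.68, adjusted p = 0.00425), where the range over 24 alternatives was 0.00425 to 0.497.

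Ier2 (chromosome 8, 84661331 to 84662852), a gene of a single exon, was at 9.89, 7.65, 9.72 and 13.7 CPM at day 0. Its day 1 levels were 43.9 and 30.2 CPM in the 3-digit and 189, 126 and 156 CPM in the 1-digit libraries. Its day 3 levels were 40.9, 15.4, 16.4, 27.3 and 53.2 CPM. Both later days lay above day 0 in every library. Its log2 fold change was 3.41 ± 0.56 (SE, adjusted p = 0.000452 by edgeR) at day 1 and 1.58 ± 0.52 (adjusted p = 0.0311) at day 3. For Ier2 the 3-digit libraries alone gave 1.86 (adjusted p = 0.00412) at day 1.

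Ier3 (chromosome 17, 35821684 to 35822923) was at 17.5, 20.1, 19.5 and 33.1 CPM at day 0. At day 1 it was at 77.4 and 65.1 CPM in the 3-digit and at 238, 315 and 276 CPM in the 1-digit libraries. Its day 3 levels were 44.9, 34.1, 47.7, 47.7 and 98.7 CPM. Again no library of day 1 or day 3 fell within day 0, although replicate 2 of day 3 came close to replicate 4 of day 0. Its log2 fold change was 3.10 ± 0.49 (SE, adjusted p = 0.000362 by edgeR) at day 1 and 1.27 ± 0.46 (adjusted p = 0.0447) at day 3. For Ier3 the 3-digit libraries alone gave 1.66 (adjusted p = 0.000653) at day 1.

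At day 3 against day 0, 6 of the 8 genes rose, where 19.5% of all genes tested did, and in 4 of them (Egr2, Egr3, Ier2 and Ier3) the groups did not overlap, as for 16.9% of all genes in this direction. The median of the 8 genes was 1.68, beside 0.05 over all genes tested. Of these calls, that of Egr2 was kept in all 24 alternatives, while 4 were close to the threshold. The Egr1 call was kept in 12 of 25 alternatives (adjusted p from 0.00843 to 0.125), that of Ier3 in 16 of 25 (0.00038 to 0.118), that of Nr4a1 in 17 of 25 (0.000135 to 0.102) and that of Ier2 in 20 of 25 (0.000195 to 0.0842). Leaving out replicate 1, 2 or 3 of day 0, or replicate 1 or 5 of day 3, ended each of these 4 calls, with adjusted p from 0.0648 to 0.0842 for Ier2. Leaving out replicate 4 of day 3 also ended those of Egr1, Nr4a1 and Ier3, leaving out replicate 3 of day 3 those of Egr1 and Ier3, leaving out replicate 4 or 5 of day 1 that of Egr1, and leaving out replicate 3 of day 1 that of Ier3. The adjusted p without these libraries lay from 0.052 to 0.125 for Egr1, from 0.0515 to 0.118 for Ier3 and from 0.0591 to 0.102 for Nr4a1.

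**Figure D2:**
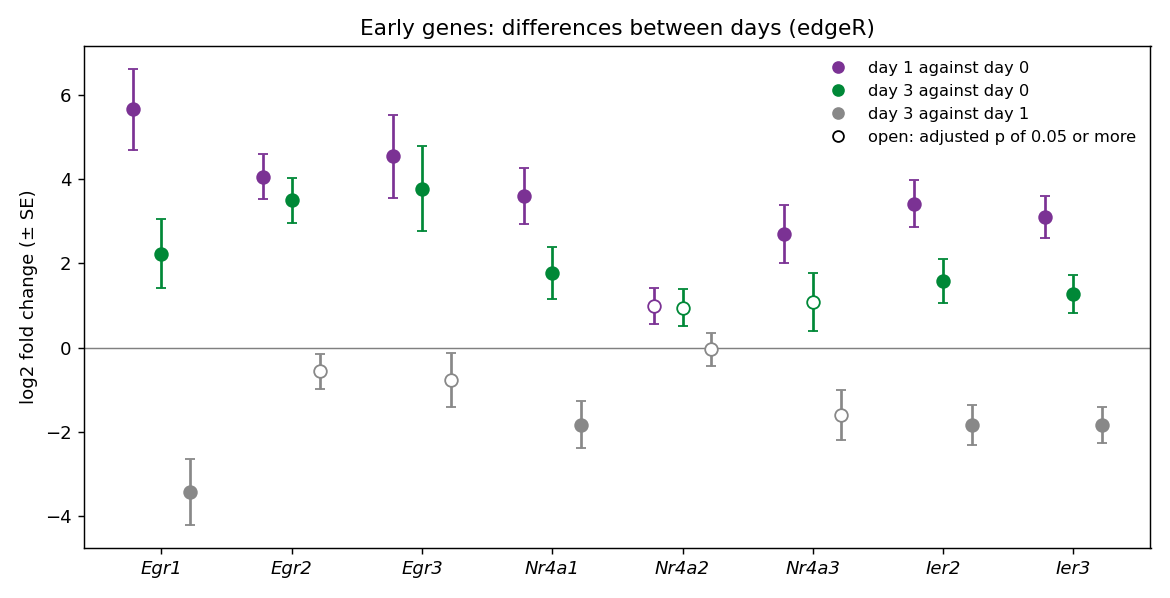
Log2 fold changes with SE from edgeR for the 8 genes, for day 1 against day 0, day 3 against day 0 and day 3 against day 1; open points have an adjusted p of 0.05 or more. Egr1 stands at 5.66 and 2.23 in the first and second comparison and at -3.43 in the third, while Egr2 stands at 4.06, 3.50 and -0.56.

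Day 3 against day 1 asks which of the early genes came down. In this comparison 4 of 8 fell, where 7.39% of all genes tested fell, and the 2 days overlapped in every one of the 8 genes (3.47% of all genes were lower without overlap). Egr1 fell by 3.43 ± 0.78 on the log2 scale (SE, adjusted p = 0.0117 by edgeR), Nr4a1 by 1.83 ± 0.55 (adjusted p = 0.0379), Ier2 by 1.84 ± 0.48 (adjusted p = 0.0205) and Ier3 by 1.83 ± 0.43 (adjusted p = 0.0133). Nr4a3 had -1.60 ± 0.59 (adjusted p = 0.0787), Egr2 -0.56 ± 0.41 (0.362), Egr3 -0.76 ± 0.64 (0.436) and Nr4a2 -0.04 ± 0.39 (0.952). The genes that fell are the 4 most abundant ones. Nr4a1 lost its call in 12 of 25 alternatives (adjusted p from 0.00222 to 0.38), among them without replicate 1 or 2 of day 0, replicate 3, 4 or 5 of day 1, or replicate 1, 2, 3 or 4 of day 3 (0.0513 to 0.0902). Ier2 lost it without replicate 3 or 5 of day 1 (0.0551 and 0.052; range over 25 alternatives 0.000882 to 0.331), and Nr4a3 gained it without replicate 2 of day 1 (0.0153; range over 24 alternatives 0.00896 to 0.722).

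The days were also compared between the 1-digit groups, in a fit of all 14 libraries with groups defined by day and number format together. Libraries of both kinds thus set the spread in these tests. The fit of only the 1-digit libraries, quoted above for Nr4a3, is a separate alternative. There 7 of 8 genes rose at day 1 (28.9% of all genes did) and 7 of 8 at day 3 (28.6%), with Nr4a2 not called at either day. The log2 fold change of Egr1 was 6.27 ± 0.77 (SE, adjusted p = 2.46e-05 by edgeR) at day 1 and 2.44 ± 0.74 (adjusted p = 0.0135) at day 3. Those of Ier3 were 3.61 ± 0.27 (adjusted p = 8.15e-07) and 1.70 ± 0.28 (adjusted p = 0.000307), and those of Nr4a1 were 4.12 ± 0.50 (adjusted p = 2.1e-05) and 2.31 ± 0.52 (adjusted p = 0.00251). Without replicate 4 of day 0 the values of Egr1 were 7.39 and 3.56, and those of Egr2 were 4.19 at both days. Without replicate 5 of day 3 the day 3 values of Egr1, Egr3 and Ier3 were 1.61, 3.70 and 1.10, and from day 1 to day 3 Egr1 and Ier3 were at -4.70 and -2.54. The day 3 calls of Egr1 (without replicate 5 of day 3, adjusted p = 0.182) and of Nr4a3 (without replicate 2 or 3 of day 0 or replicate 4 or 5 of day 3, 0.0543 to 0.0884) rested on single libraries, with ranges of 0.00073 to 0.182 over 21 and 0.0136 to 0.0884 over 20 alternatives. From day 1 to day 3, 5 of 8 genes fell within the 1-digit libraries, where 15.5% of all genes fell, and day 3 lay below day 1 without overlap in each of the 5, as for 25.6% of all genes. Egr1 fell by 3.83 ± 0.92 (adjusted p = 0.00743), Ier2 by 1.97 ± 0.43 (0.00434), Ier3 by 1.92 ± 0.32 (0.00102), Nr4a1 by 1.81 ± 0.57 (0.0289) and Nr4a3 by 1.59 ± 0.56 (0.0462). Without replicate 4 of day 3, 1 of the 5 remained called (Ier3), with adjusted p of 0.0717 for Egr1, 0.0533 for Ier2, 0.195 for Nr4a1 and 0.152 for Nr4a3. That leaves a single 1-digit library at day 3, which is assumed to vary like the other groups. The adjusted p over 20 or 21 alternatives reached at most 0.0117 for Ier3, and ran from 0.000297 for Egr1, 1.14e-05 for Ier2, 0.00331 for Nr4a1 and 0.0236 for Nr4a3 up to 0.0717, 0.0533, 0.195 and 0.153. The Nr4a1 call was also lost without replicate 3 or 5 of day 1 (0.0531 and 0.0598), and that of Nr4a3 without any of replicates 1, 2 and 3 of day 0, 3 and 5 of day 1 and 3 and 5 of day 3 (0.0532 to 0.153).

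Within the 3-digit libraries no early gene was called between day 1 and day 3 by edgeR's quasi-likelihood test, where 13.9% of all genes were called in either direction. The lowest adjusted p by edgeR were those of Egr2 (-1.12 ± 0.43, adjusted p = 0.097) and Ier3 (-0.75 ± 0.30, adjusted p = 0.109), and DESeq2 called 1. Both genes lay lower at day 3 in all 3-digit libraries, as for 21.4% of all genes, and for the other 6 the days overlapped. Egr2 was called in 3 of 20 alternatives, among them without replicate 4 of day 0 (adjusted p = 0.0371; range 0.0371 to 0.453). Leaving out replicate 1 of day 3 gave a call for Nr4a1 (0.0236; range over 21 alternatives 0.0236 to 0.889) and Ier2 (0.0245; 0.0245 to 0.769), and leaving out replicate 5 of day 3 one for Ier3 (0.0491; 0.0491 to 0.393). Day 0 holds no 3-digit library, so for 3-digit libraries against day 0 the day and the number format cannot be told apart. With that limit, 6 of 8 genes were called at day 1 (22.9% of the genes tested in that fit rose) and 3 of 8 at day 3 (Egr2, Ier2 and Ier3, beside 19.3%) when only 3-digit libraries were set against day 0.

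The kinds of library were compared within day 1. There 5 of the 8 genes were lower in the 3-digit libraries, where 16.4% of all genes tested were lower, and 1, Egr2, was higher, where 18.6% were higher. Ier3 was lower by 1.95 ± 0.32 on the log2 scale (SE, adjusted p = 0.000912 by edgeR) and Ier2 by 2.09 ± 0.43 (adjusted p = 0.00303). Nr4a3 was lower by 2.30 ± 0.58 (adjusted p = 0.00911), Nr4a1 by 2.003 ± 0.58 (adjusted p = 0.0174) and Egr1 by 2.87 ± 0.87 (adjusted p = 0.0215). In each of these 5 both 3-digit libraries lay below all of the 1-digit libraries, as for 29.4% of all genes. Egr2 was higher by 1.28 ± 0.43 (adjusted p = 0.0344), and its 3-digit libraries lay above the others, as for 31.2% of all genes. Egr3 (-0.92 ± 0.76, adjusted p = 0.365) and Nr4a2 (-0.10 ± 0.55, adjusted p = 0.905) overlapped. The calls of Ier2 and Ier3 held in all 21 alternatives, with adjusted p of at most 0.049 and 0.0314. Without replicate 2 of day 1 only these 2 remained, with adjusted p of 0.171 for Egr1, 0.165 for Nr4a1, 0.108 for Nr4a3 and 0.069 for Egr2. Without replicate 1 of day 1 the values of Egr1 (-3.50, adjusted p = 0.0551), Nr4a1 (-2.62) and Nr4a3 (-3.41) moved by over 1.5 times, as did that of Nr4a3 without replicate 2 (-1.65). The uncalled value of Egr3 was -2.52 (adjusted p = 0.0878) without replicate 1 and -0.14 (adjusted p = 0.929) without replicate 2. Leaving out replicate 1 or 2 leaves a single 3-digit library at day 1, which is assumed to vary like the other groups. Egr1 was also lost without replicate 1 of day 1 (0.0551), and Egr2 without replicate 1, 3 or 4 of day 1 (0.0802 to 0.21). Over the alternatives the adjusted p ran from 0.00565 to 0.171 for Egr1, 0.00964 to 0.21 for Egr2, 0.00104 to 0.165 for Nr4a1 and 0.000818 to 0.108 for Nr4a3.

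Within day 3 no early gene was called between the kinds of library by edgeR's quasi-likelihood test, where 18.5% of all genes were called in either direction. DESeq2 called none either, and the lowest adjusted p by edgeR was that of Ier3 (-0.79 ± 0.30, adjusted p = 0.0768). The 3-digit libraries lay below the 1-digit ones in Nr4a2, Nr4a3 and Ier3, as for 20% of all genes, and 7 of 8 genes had a value below 0, with a median of -0.76. For Ier3 the groups all but met, at 47.6518 CPM in replicate 3 (3-digit) and 47.6549 CPM in replicate 4 (1-digit). Those of Nr4a2 were also close, at 1.068 CPM in replicate 1 (3-digit) and 1.075 CPM in replicate 4 (1-digit). Leaving out replicate 1 of day 3, the 3-digit library with high Egr1, Nr4a1 and Ier2, gave 3 calls, Nr4a1 (-1.93, adjusted p = 0.00832), Ier2 (-1.34, adjusted p = 0.00908) and Nr4a3 (-1.71, adjusted p = 0.0466). Ier3 was called without replicate 4 of day 3 (-1.23, adjusted p = 0.0162) and without replicate 4 of day 0 (-0.79, adjusted p = 0.0485). Over 20 or 21 alternatives the adjusted p ran up to 0.707 for Nr4a1, 0.84 for Ier2, 0.447 for Nr4a3 and 0.993 for Ier3.

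The difference between the kinds of library was itself compared between day 1 and day 3. No early gene was called, where 17.6% of all genes were. The lowest adjusted p by edgeR were those of Ier3 (-1.16 ± 0.43, adjusted p = 0.079), Ier2 (-1.35 ± 0.57, adjusted p = 0.119) and Egr1 (-2.51 ± 1.14, adjusted p = 0.145). DESeq2 called 1, Ier3 (adjusted p = 0.0352), which was also called without replicate 4 of day 0 (0.0459) or replicate 5 of day 3 (0.0196), within a range of 0.0196 to 0.24 over 21 alternatives.

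**Figure D3:**
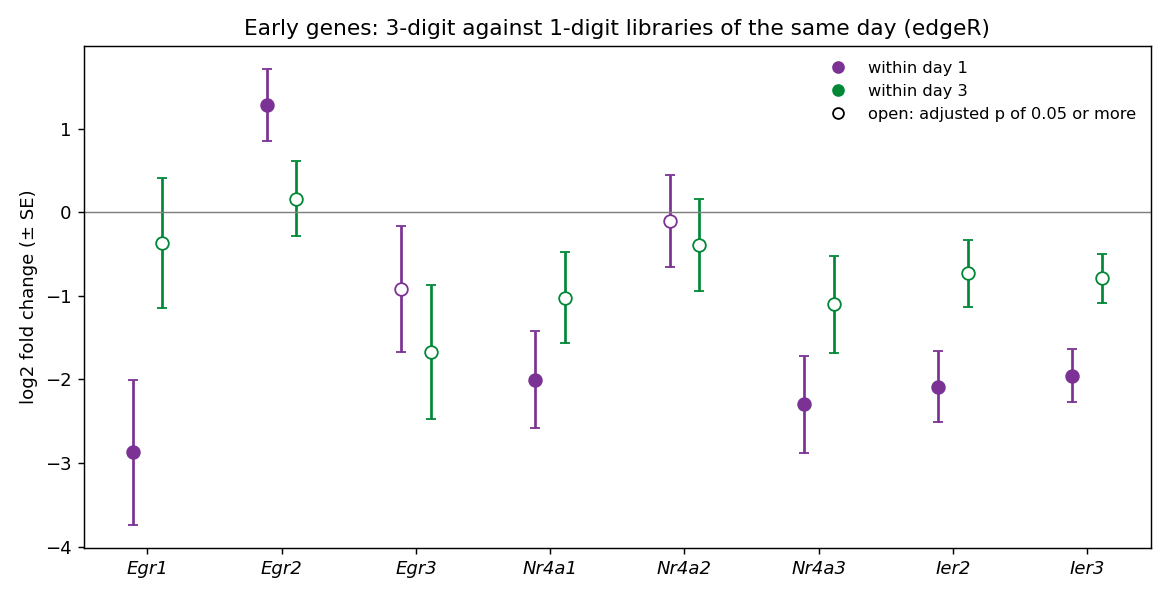
Log2 fold changes with SE from edgeR for 3-digit against 1-digit libraries, within day 1 and within day 3, for the 8 genes; open points have an adjusted p of 0.05 or more. Within day 1, Egr1 (-2.87), Nr4a1 (-2.003), Nr4a3 (-2.30), Ier2 (-2.09) and Ier3 (-1.95) are below 0 and Egr2 (1.28) is above it, and all points of day 3 are open.

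Summed marker levels of other cell types differed between days and between number formats, and the genes of a list did not all move together. The summed level of 7 neutrophil markers was 1.33 to 2.07 CPM at day 0, 47.4 to 201 CPM at day 1 and 19.3 to 408 CPM at day 3, and 5 of the 5 tested were higher at both days. Mpo and Elane were at 0 in every library of day 0. The sum of 8 proximal tubule markers was 18407 to 20343 CPM at day 0. At day 1 it was 13661 to 20221 CPM in 1-digit and 4628 to 6231 CPM in 3-digit libraries, while at day 3 it was 3594 to 8060 CPM in 1-digit and 11490 to 17515 CPM in 3-digit ones. So the proximal tubule sum was lower in the 3-digit libraries at day 1 and higher in them at day 3. The sum of 8 macrophage markers at day 1 was 132 to 199 CPM in 1-digit and 321 to 340 CPM in 3-digit libraries, and that of 8 smooth muscle markers was 311 to 399 CPM and 491 to 583 CPM. At day 3 the smooth muscle sum was 785 to 965 CPM and 293 to 350 CPM, the reverse order. Of its genes, Acta2 (3.24), Tagln (3.28), Des (1.16) and Lmod1 (1.34) were called higher at day 3 against day 0 on the log2 scale. Myh11 (0.44), Cnn1 (0.27) and Smtn (0.30) were not called there. The macrophage sum of day 3 was 192 to 231 CPM in 1-digit and 296 to 484 CPM in 3-digit libraries, but its genes went both ways. There Lyz2 (2.48), Adgre1 (3.56), C1qb (2.10) and Csf1r (0.93) were higher in the 3-digit libraries on the log2 scale, and Cd68 was lower (-1.23, adjusted p = 0.0205). The endothelial sum at day 3 was 543 to 846 CPM in 1-digit and 241 to 394 CPM in 3-digit libraries, and the podocyte sum was 474 to 495 CPM and 289 to 365 CPM. Both overlapped between the kinds of library at day 1. Fibroblast and pericyte markers summed to 139 to 146 CPM at day 0, to 150 to 203 CPM in 1-digit and 341 to 450 CPM in 3-digit libraries at day 1, and to 540 to 1173 CPM at day 3. Of these markers, Pdgfrb (1.53) and Col3a1 (1.61) were called higher at day 1 against day 0, Rgs5 (-0.97) lower and the others not. Markers of thick limb, distal tubule and collecting duct summed to 7068 to 9702 CPM at day 0, 3902 to 6455 CPM at day 1 and 2423 to 3848 CPM at day 3. The urothelial sum was 4.53 to 85.1 CPM, 365 to 1210 CPM and 56.5 to 884 CPM on the 3 days. Of its 8 genes Krt20 alone was called higher (9.68 at day 1 and 8.35 at day 3 on the log2 scale), and Upk2, a uroplakin, was lower at day 3 (-4.44, adjusted p = 0.0233). Between the kinds of library at day 1, Trp63 (3.45, adjusted p = 0.00419), Krt5 (5.16, adjusted p = 0.0208) and Upk1b (5.28, adjusted p = 0.0313) were higher in the 3-digit libraries, and at day 3 Krt20 was lower in them (-2.43, adjusted p = 0.0417). Adipose and adrenal markers summed to 1.15 to 19.3 CPM at day 0, to 2.25 to 8.23 CPM in 1-digit and 22.8 to 35.5 CPM in 3-digit libraries at day 1, and to 19.7 to 26.0 CPM and 1.07 to 7.63 CPM at day 3. Cidec had the highest mean of the adipose and adrenal markers over the 14 libraries (7.78 CPM), followed by Star (1.27 CPM). The part of these cell types in the values of the early genes was not tested.

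Replicate 4 of day 0 was the highest of its day in 7 of 8 genes (all but Egr3), while it was the highest in 30% and the lowest in 34.3% of all genes tested. Over all genes tested its counts also stood apart from the other day 0 libraries (chi-square per degree of freedom 22.2 to 24.9). Among themselves those libraries had 5.70 to 8.04. Replicate 2 of day 3 was the lowest of its day in 8 of 8 genes, against 26.6% of all genes, and replicate 2 of day 1 was the lowest in 6 of 8, against 26.3%.

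The spread between libraries of one day was measured as the SD of log2 CPM. That of Egr1 was 1.39 at day 0, 1.67 at day 1 and 0.91 at day 3, where the median over all genes tested was 0.14, 0.38 and 0.38. Without replicate 4 of day 0, an alternative chosen after seeing the data, the SD of day 0 was lower in 7 of 8 genes and that of Egr3 was not (0.36, and 0.35 with it). It was then 0.64 for Egr1, 0.29 for Egr2 (0.80 with it), 0.16 for Nr4a2 (0.82 with it), 0.26 for Nr4a3 (0.33 with it) and 0.10 for Ier3 (0.41 with it), beside a median of 0.11. The day 1 values join both kinds of library, and within the 1-digit libraries, likewise chosen after seeing the data, the SD was 0.49 for Egr1, 0.0948 for Nr4a1 (1.2004 in all) and 0.20 for Ier3 (1.08 in all), beside a median of 0.23. That of Nr4a2 was higher there (0.43, and 0.34 in all). At day 3 the SD was 1.19 for Nr4a1 and 0.57 for Ier3, while those of Egr2 (0.29) and Nr4a2 (0.27) lay under the median.

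**Figure D4:**
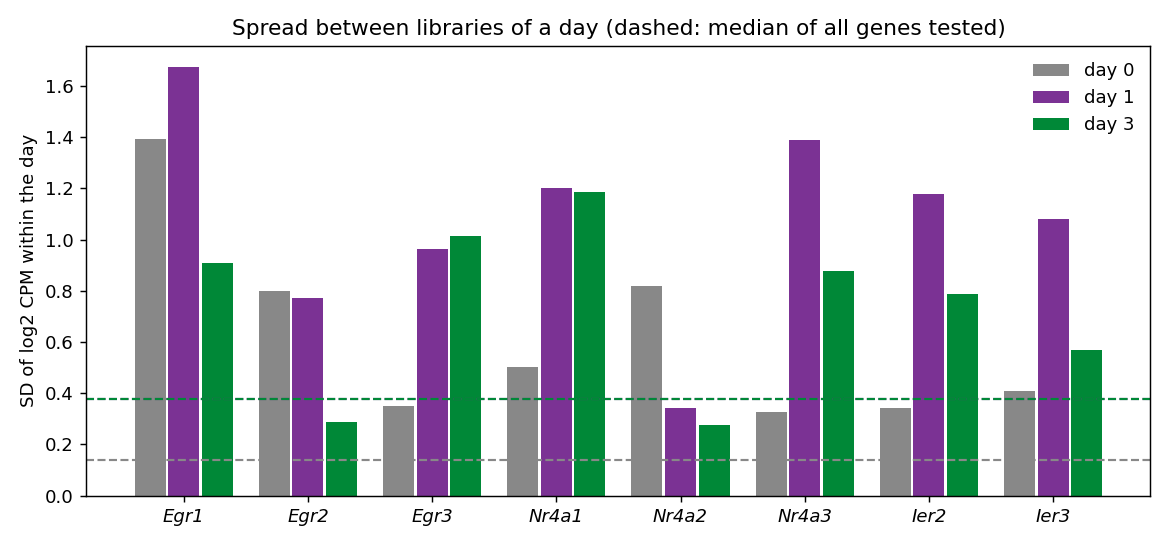
SD of log2 CPM (prior count 2) between the libraries of each day for the 8 genes, as bars from 0, with dashed lines at the median SD of all genes tested (0.14 at day 0, and 0.38 at both day 1 and day 3, where the lines coincide). Egr1 has the tallest bars at day 0 (1.39, or 0.64 without replicate 4) and day 1 (1.67, or 0.49 in the 1-digit libraries), and Egr2 and Nr4a2 lie under the line at day 3.

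Divided by exonic length, levels can be compared between genes. On the scale of mean CPM per kilobase, Ier3 led on every day, at 19.96 ± 6.3 (SD, n = 4) at day 0, 172 ± 102 (SD, n = 5) at day 1 and 48.3 ± 22.3 (SD, n = 5) at day 3. At day 0 Ier2 followed (6.73 ± 1.66), then Egr1 (1.67 ± 1.84) and Nr4a1 (1.502 ± 0.559). By median, Nr4a1 (1.38) stood above Egr1 (0.878), whose highest library, replicate 4, was at 4.38. Below these stood Nr4a2 (0.126 ± 0.105), Egr2 (0.0929 ± 0.0815), Nr4a3 (0.0674 ± 0.0199) and Egr3 (0.00701 ± 0.0081). By median, Nr4a3 (0.0648) stood above Egr2 (0.0617). Replicate 4 of day 0 was the highest library of its day for Nr4a2 (0.283) and Egr2 (0.213). Libraries of neighbours in the order of means overlapped for Egr1 and Nr4a1, for Nr4a2 and Egr2, and for Egr2 and Nr4a3. The other neighbours did not overlap. At day 1 Egr1 (84.3 ± 67.1) came second, before Ier2 (71.7 ± 45.8) and Nr4a1 (18.3 ± 10.9), and Egr2 (1.58 ± 0.879) came after Nr4a1. There Nr4a1 and Egr2 were the only neighbours without overlap. At that day the mean of Egr1 was above that of Ier2 with 1-digit libraries alone (128.8 and 103 CPM per kilobase) and below it with 3-digit libraries alone (17.6 and 24.4 CPM per kilobase). At day 3 the order was Ier3, Ier2 (20.1 ± 10.7), Egr1 (7.85 ± 4.88), Nr4a1 (5.17 ± 3.46), Egr2 (1.07 ± 0.216), Nr4a2 (0.245 ± 0.0506), Nr4a3 (0.146 ± 0.0797) and Egr3 (0.118 ± 0.108), and of the neighbours only Egr2 and Nr4a2 did not overlap.

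The genes whose pattern over the 14 libraries was most like each member were found by the smallest root mean square difference of centred log2 CPM among 13320 genes, with the 8 members left out. For Egr1 they were Fos (0.49), the partner of JUN in AP-1, and Nr1d1 (0.71), a repressor of the circadian clock. For Ier3 they were Ifrd1 (0.25) and Pvr (0.34), for Ier2 Hbegf (0.38), an EGF receptor ligand, and Ifrd1 (0.38), and for Nr4a1 Sdcbp2 (0.49) and Ifrd1 (0.50). For Nr4a3 they were Mafk (0.39) and Zfand2a (0.40), for Egr2 Sbsn (0.41) and Slc25a24 (0.47), for Egr3 Cyp3a13 (0.44) and Cd93 (0.44), and for Nr4a2 Slc22a15 (0.18) and Lypd6b (0.27). Within the 8 genes, Nr4a1 and Ier2 were nearest to each other (0.36), Ier3 was nearest to Ier2 (0.37), and Egr1 and Egr2 had no member closer than 1.09 and 1.12. A gene that varies little, such as Nr4a2, lies near to many others by this measure. The libraries share day and number format, and with day means removed no member kept both of its genes, and Egr1, Nr4a2 and Ier3 kept 1 of the 2. With a prior count of 0.5 in place of 2, Egr1, Ier2 and Ier3 kept both, Egr3 kept 0 and the others kept 1.

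Of the 22 other immediate early genes tested, 20 rose at day 1 and 11 at day 3 against day 0 (23.3% and 19.5% of all genes did), with a median log2 fold change of 3.19 and 1.61. From day 1 to day 3, 15 of 22 fell (median -1.74), where 7.39% of all genes fell. Ctgf, a matrix-associated growth regulator, rose by 3.14 ± 0.52 on the log2 scale at day 1 (SE, adjusted p = 0.000495 by edgeR), and Klf6, a zinc-finger factor, by 3.99 ± 0.45 (adjusted p = 3.41e-05). Sgk1, a kinase of sodium transport, had 0.95 ± 0.39 (adjusted p = 0.0622). Fosl1, an AP-1 subunit, went from 0 or 1 count per library at day 0 to 32.5 to 162 CPM at day 1. In the 3-digit libraries of day 1, 17 of the 22 were lower than in the 1-digit ones (median -1.73, beside 16.4% of all genes lower) and none was higher. At day 3, 10 of 22 were lower (median -0.75, beside 8.22% of all genes) and none was higher. Fosb differed most at day 1, at 42.1 to 96.4 CPM in the 1-digit and 0.953 to 2.69 CPM in the 3-digit libraries.

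**Figure D5:**
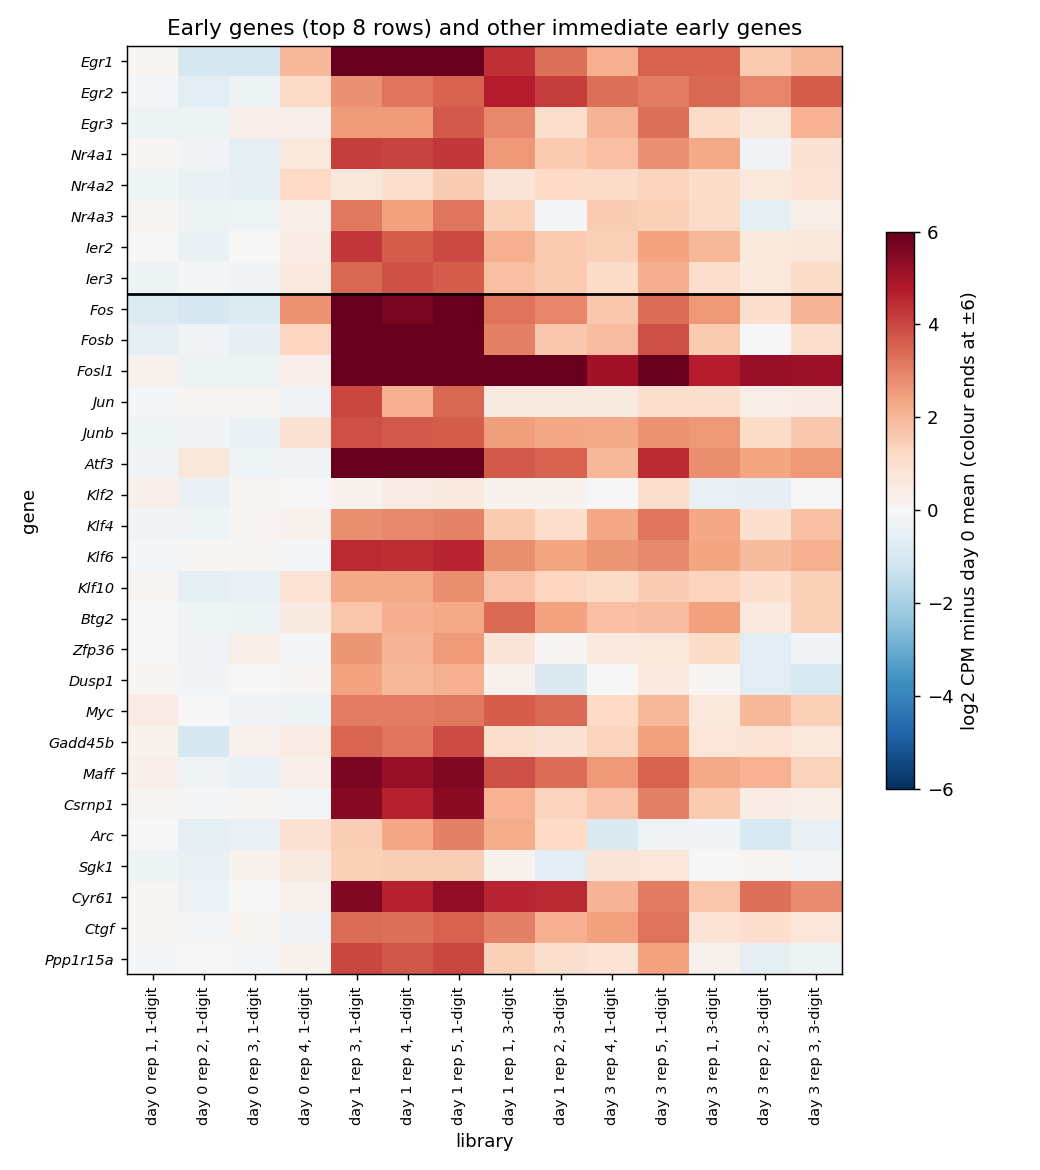
Log2 CPM minus the day 0 mean for the 8 early genes (above the line) and 22 other immediate early genes, with libraries ordered by day and number format and colour from blue (lower) to red (higher), ending at -6 and 6. The 1-digit libraries of day 1 are the reddest columns for most genes, and the exceptions among the 8 are Egr2, highest in the 3-digit libraries of day 1, Egr3 and Nr4a2.

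Of 10 genes known as EGR1 targets, 9 were tested, and all 9 rose at day 1 and 7 at day 3 against day 0 (median 1.89 and 1.15), where 23.3% and 19.5% of all genes rose. F3, tissue factor, rose by 2.76 ± 0.31 on the log2 scale at day 1 (SE, adjusted p = 3.32e-05 by edgeR) and Thbs1, thrombospondin 1, by 1.72 ± 0.26 (adjusted p = 0.000271). From day 1 to day 3, 4 of 9 fell (7.39% of all genes). In the 3-digit against the 1-digit libraries of day 1, 2 of 9 were lower, F3 and Pdgfa, beside 16.4% of all genes.

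The 18 genes of the signalling that leads to early genes moved less. Of these, 9 rose and 1, Creb1 (-0.77 ± 0.28, adjusted p = 0.0418 by edgeR), fell at day 1, with a median of 0.36, where 23.3% of all genes rose. Creb1 was lower than day 0 in the 1-digit libraries of day 1 (-1.41, adjusted p = 1.33e-05), and in the 3-digit ones it was 1.25 higher than in those (adjusted p = 0.000468). At day 3, 4 rose, a share close to the 19.5% of all genes, and 1, Map2k2 (-0.46 ± 0.12, adjusted p = 0.00833), fell. Elk3, an SRF partner factor, rose by 1.12 ± 0.27 at day 1 (adjusted p = 0.00522). Of the 5 partners and corepressors, namely Nab1 and Nab2, which restrain EGR factors, and the retinoid X receptors Rxra, Rxrb and Rxrg, which pair with NR4A1 and NR4A2, none was called against day 0 at either day with all libraries. Within the 1-digit libraries Nab1 (0.77 ± 0.14, adjusted p = 0.000353) and Rxrg (1.87 ± 0.42, adjusted p = 0.00207) rose at day 1, and Rxrb (0.47 ± 0.14, adjusted p = 0.0139) and Rxrg (1.38 ± 0.49, adjusted p = 0.0301) at day 3, where 28.9% and 28.6% of all genes rose. Of the relatives, Ier5 rose at day 1 (1.80 ± 0.21, adjusted p = 4.36e-05) and at day 3 (0.92 ± 0.21, adjusted p = 0.00429). Ier5l was at 0.62 ± 0.33 (adjusted p = 0.141) at day 1 and rose at day 3 (0.96 ± 0.33, adjusted p = 0.0384), and Egr4 had at most 1 count in any library and was not tested.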

How the data were processed

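Whole-kidney RNA of 14 libraries was sequenced and, per the labels and methods, the authors trimmed reads with Trimmomatic and aligned them with STAR to mm10 (versions are not given in the sources used here). The deposited files hold whole-number read counts per gene, and the column of the strand that held 98.5 to 98.7% of stranded reads was used. The 4 rows that name no gene (29.0 to 38.3% of reads) were left out. Of 24411 genes, 14300 passed edgeR's filter on low counts. Counts were tested with edgeR 4.0.16 (R 4.3.3, TMM, quasi-likelihood test, Benjamini-Hochberg adjustment over all genes tested), by day for comparisons of days and by day and number format otherwise. The test was checked on simulated data whose spread followed the trend over all genes, so genes more variable than that trend were not covered. Of 200 genes changed by 2 on the log2 scale, 179 were called at day 1 against day 0, with 11 false calls. Between formats at day 1, 158 of 200 were called, with 3 false calls. The members, gene lists and tests were chosen with earlier results of these data known. Genes named are the 8 members, the 3 most abundant of each list and those with the largest change, the tissue and injury marks, and members of small counts, and some genes that this rule names are not reported here. Day comparisons share the day 0 or day 1 libraries. The labels do not say whether replicates are separate animals. Alternatives were other scalings (RLE, total counts), filters, strand column, threshold, DESeq2 1.42.0, subsets of libraries, a replicate block and leaving out each library. Intervals cover counting error only.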

Additional observations from a re-analysis of the deposited data

Results flagged for a closer look

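In 24 groups of 4 or 5 libraries (8 genes on 3 days), the gap between the highest or lowest library and its neighbour was compared with Dixon's 95% critical value, which chance passes in about 1.2 of 24 groups. Nr4a2 in replicate 4 of day 0 was at 1.15 CPM, and the next library of that day was at 0.345 CPM. Ier3 in replicate 4 of day 0 was at 33.1 CPM, and the next was at 20.1 CPM. Ier3 in replicate 5 of day 3 was at 98.7 CPM, and the next was at 47.7 CPM. Replicate 4 of day 0 was the highest library of its day in 7 of the 8 genes.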

How the results depend on the processing

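Over 80 results of single genes and 1735 alternatives, 1596 kept direction and side of the threshold, 87 lost a call, 23 gained one and 29 turned direction, none of them called. The numbers of called genes moved as follows. With at least 10 counts in every library, only the 4 abundant members were tested, and 4 were called at day 1, 3 at day 3, 4 at day 1 and 4 at day 3 within 1-digit libraries against day 0. At an adjusted p under 0.01, 3 were called between formats at day 1, 1 at day 3 against day 0, 0 at day 3 against day 1 and 3 of these within 1-digit libraries. With only the 3-digit libraries 3 were called at day 3 against day 0 and 0 against day 1, and with only the libraries of the 2 days 2 were called at day 3 against day 1. DESeq2 called 5 at day 3 against day 1, 1 within 3-digit libraries between days and 1 for the format difference. Leaving out single libraries gave 2 to 7 calls at day 3 against day 0, 2 to 5 at day 3 against day 1, 2 to 6 between formats at day 1, 0 to 3 between formats at day 3, 1 to 5 between days within 1-digit and 0 to 2 within 3-digit libraries, and 0 to 1 for the format difference. The cause was not tested.

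Of 13 pairs of libraries with the same replicate number, 4 had a correlation over 0.1 (range -0.175 to 0.261). Pairs with different numbers ran from -0.499 to 0.534. The number format differs within some same-number pairs, so this check cannot decide whether replicate numbers pair the libraries. With the replicate block, 1 gene was called between days within 3-digit libraries (Egr2, -1.32, adjusted p = 0.0382 by edgeR), and uncalled values turned for Egr1 (0.72) and Egr3 (0.0893) between formats at day 3, Egr3 (1.35) between formats at day 1, and Nr4a2 between formats at day 1 (0.95) and day 3 (1.01), between days within 1-digit libraries (-0.24) and for the format difference (-0.0609). With total counts and no TMM, values turned for Egr2 within 1-digit libraries (0.21) and Nr4a2 between formats at day 1 (0.11) and at day 3 against day 1 (0.11), the latter also with only 1-digit libraries (0.13).

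Leaving out single libraries moved uncalled values across 0 for Egr1 between formats at day 3 (-1.20 to 0.47), Egr2 between days within 1-digit libraries (-0.19 to 0.20), Egr3 within 1-digit (-1.18 to 0.31) and 3-digit libraries (-1.79 to 0.58) and for the format difference (-0.86 to 1.53), Nr4a2 between formats at day 1 (-0.37 to 0.17), at day 3 against day 1 (-0.15 to 0.10), within 1-digit (-0.0461 to 0.42) and 3-digit libraries (-0.36 to 0.13), and Nr4a3 within 3-digit libraries (-1.04 to 0.71). Depth limits Egr3, with at most 22 counts in a library, and Nr4a2, with at most 25.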
